A study of Mus musculus with 24 samples.

Results

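The glucocorticoid receptor gene Nr3c1, the steroid-activating enzyme gene Hsd11b1 and 8 genes that glucocorticoids induce (Fkbp5, Tsc22d3, Zbtb16, Sgk1, Klf9, Ddit4, Errfi1 and Cdkn1a) were followed in mouse thoracic aorta. They are 10 of the 25941 genes in the deposited count table, taken by gene symbol, and none of these 10 symbols was carried by more than 1 row. The 10 genes were chosen by a reading of earlier results on these same libraries, in which most of the targets were lower with the drugs. Their levels, their changes against control and their covariation with each other are therefore given as a description, and counts of those past the threshold of the fit over all genes describe them too. Permutation tests are given only for their relation to marker levels of other cell types, which that choice had not used. The marker lists themselves were chosen with earlier results of these data known. The samples were thoracic aortas of adult male wildtype C57BL/6 mice aged 10 to 12 weeks. Chow was given for 3 weeks, and it carried celecoxib for 8 samples (100 mg/kg/day), rofecoxib for 8 (50 mg/kg/day) and no drug for 8 controls. Every mouse, controls included, received 10 ug/kg of interleukin-1β by intraperitoneal injection 4 h before collection at zeitgeber time 11, so the response to the cytokine itself was not measured. RNA was selected for poly(A) tails and sequenced, 1 library per sample.

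Glucocorticoids such as corticosterone, the main one of the mouse, cross the cell membrane and bind the glucocorticoid receptor, which waits in the cytoplasm in a complex with heat shock protein chaperones. The bound receptor moves to the nucleus and binds DNA at response elements built from a pair of inverted half-sites, where it raises the transcription of some genes, while it restrains inflammatory genes largely through other transcription factors. Within a tissue the supply of active steroid also depends on the enzyme encoded by Hsd11b1, which regenerates corticosterone from its inactive form. In mice, which are active at night, circulating corticosterone rises towards the start of the dark phase, and interleukin-1 stimulates the adrenal axis. Celecoxib and rofecoxib selectively inhibit cyclooxygenase-2, celecoxib carrying a sulfonamide and rofecoxib a methylsulfone. Corticosterone was not measured in the sources used here.

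Promoter sequences are shown because the response element is the DNA letter code shared by direct targets. RefSeq windows on GRCm38.p6 were used for 8 of the 10 genes, with 17 transcription starts in all, and the 250 bases before each start were searched on both strands. The receptor's palindrome, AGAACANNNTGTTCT, was present before 1 start of 1 gene, Sgk1, beginning 189 bases before that start. The same palindrome was present in 3 of all 32851 windows of that length, or 0.00913%. A looser form, AGNACANNNTGTNCT, which includes the first, was found in the same place in these genes and in 0.0609% of all windows. The half-site AGAACA, which lies inside the palindrome and is read as TGTTCT on the other strand, was found in 4 of the 17 windows, 3 of Sgk1 and 1 of Tsc22d3, and in 16.1% of all windows. The window of Sgk1 that holds the palindrome lies at chr10:21993640-21993889 on the plus strand, and that of Tsc22d3 with a half-site at chrX:140600523-140600772 on the minus strand. Both are printed 5′ to 3′ up to the last base before the start, with the palindrome and the half-sites in capitals.
Sgk1: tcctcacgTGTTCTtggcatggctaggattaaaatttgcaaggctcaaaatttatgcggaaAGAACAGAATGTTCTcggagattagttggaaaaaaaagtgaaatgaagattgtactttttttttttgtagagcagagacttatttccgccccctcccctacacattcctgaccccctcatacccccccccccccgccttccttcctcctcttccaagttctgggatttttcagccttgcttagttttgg
Tsc22d3: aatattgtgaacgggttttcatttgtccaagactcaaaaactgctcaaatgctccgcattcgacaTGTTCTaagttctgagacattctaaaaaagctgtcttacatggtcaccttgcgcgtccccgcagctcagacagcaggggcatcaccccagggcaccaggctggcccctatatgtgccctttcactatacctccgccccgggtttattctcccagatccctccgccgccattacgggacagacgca
The other half-sites of Sgk1 began 195 and 13 bases before 2 other starts. The cyclic AMP response element TGACGTCA, which overlaps none of these motifs, was found before 1 start of Errfi1, at 51 bases, and in 1.55% of all windows. A match is a run of letters and not a shown binding site, and a window without one says nothing of the receptor, which often binds farther from its targets.

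Library totals lay between 21668798 and 21700121 counted reads, closer together than sequencing usually leaves them, which leaves the original depth of each library unknown. Levels are given as CPM, counts scaled to a common library total. The 6 smooth muscle markers, those of the main cell type of the labelled tissue, were the most abundant of the marker lists, at a summed level of 25850 to 41960 CPM, and all samples also held adipocyte markers at 692 to 4233 CPM summed over 8 genes. No pair of the 24 libraries agreed within sampling noise. In these bulk samples, fewer cells of a type and less RNA per cell cannot be told apart. Levels below are after TMM scaling, which adjusts each library for its composition, and are the lowest, median and highest of the 8 libraries of a group. Every one of the 10 genes passed the filter on low counts, and the fewest reads of any gene in any library were 189, for Hsd11b1.

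The ranges of the receptor gene overlapped in all 3 diets. Nr3c1 (ENSMUSG00000024431, chromosome 18 from 39569997 to 39651157 on mm9, the build of the table) ranged in control from 89.95 to 121 CPM with a median of 103. With celecoxib it ranged from 93.5 to 136 with a median of 111, and with rofecoxib from 94.96 to 137 with a median of 118. Of these, 2 celecoxib and 3 rofecoxib libraries lay above every control. The log2 fold change was 0.08 (SE 0.08, 95% interval -0.08 to 0.25) with celecoxib and 0.14 (SE 0.08, interval -0.02 to 0.31) with rofecoxib, so the intervals leave room for a rise and for little or no change. Whether the table's start positions count from 0 or 1 was not stated.

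**Figure D1:**
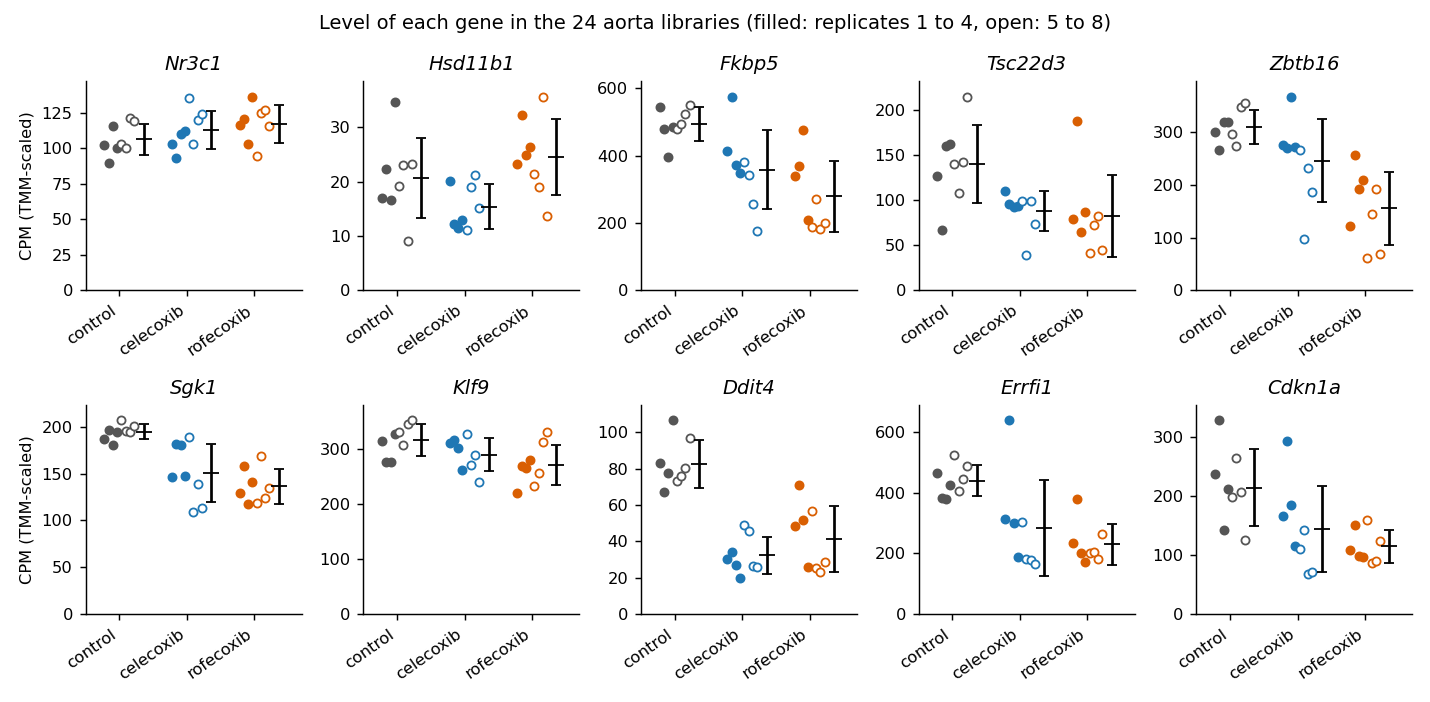
Level of each of the 10 genes in CPM (y axis, from 0) in the 8 libraries of each diet (x axis); filled points are replicates 1 to 4, open points 5 to 8, and the bar is the mean and SD. Ddit4 stands below every control in all 8 celecoxib libraries, and Zbtb16, Sgk1 and Errfi1 do so in all 8 rofecoxib libraries.

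The estimate of Hsd11b1 was below control with celecoxib, as for the targets, but above control with rofecoxib, unlike the targets. Its 95% intervals left room for no change with either drug. The enzyme's gene (ENSMUSG00000016194, chromosome 1 from 195047622 to 195090450) lay in control between 9.002 and 34.6 CPM with a median of 20.8, a wide spread. It lay between 11.2 and 21.2 with a median of 14.0 with celecoxib and between 13.7 and 35.7 with a median of 24.1 with rofecoxib. All 3 ranges overlapped, with the celecoxib libraries in the lower part of the control range. The log2 fold change was -0.42 (SE 0.21, 95% interval -0.86 to 0.02) with celecoxib and 0.25 (SE 0.21, interval -0.18 to 0.69) with rofecoxib. Without control replicate 4 these values were -0.27 and 0.40, without control replicate 7 they were -0.53 and 0.14, and without rofecoxib replicate 7 the rofecoxib value was 0.16. In GENCODE M21 the span of this gene overlaps those of an antisense gene and Lamb3 on the other strand and of Gm38118 on the same strand. The strand setting of the counting was not stated and shared exons were not checked, so its counts are uncertain to that extent.

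The level of Hsd11b1 moved with that of adipocyte markers, a relation that the choice of genes had not used. The marker lists were chosen with earlier results of these data known, which limits these tests as independent support. After each group's mean was subtracted, Hsd11b1 and the mean log2 CPM of 8 adipocyte markers correlated over 24 libraries at Pearson r = 0.83 (permutation p = 2e-05, Benjamini-Hochberg adjusted p = 0.0008 over 40 relations) and Spearman rho = 0.72 (permutation p = 0.00024, adjusted p = 0.0096). Without the 2 libraries farthest from the median marker level r was 0.81, and within control, celecoxib and rofecoxib it was 0.84, 0.86 and 0.81. Hsd11b1 also correlated with macrophage markers at r = 0.59 (permutation p = 0.0021, adjusted p = 0.042), but by rank rho was 0.56 with an adjusted p of 0.14 (permutation test), and r was 0.57 without the 2 farthest libraries. These were the 2 relations of 40, 10 genes against 4 marker levels, whose r passed after adjustment. The adipocyte level was higher with rofecoxib than in control by 1 on the log2 scale and differed by -0.12 with celecoxib. With adipocyte and skeletal muscle levels as covariates, the log2 fold change of Hsd11b1 with rofecoxib turned from 0.25 to -0.34 (SE 0.14).

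**Figure D2:**
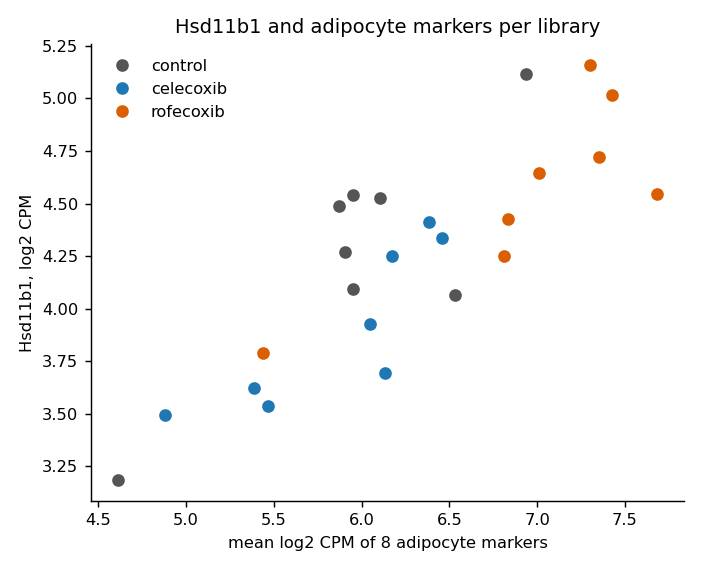
Hsd11b1 (y axis, log2 CPM) against the mean log2 CPM of 8 adipocyte markers (x axis) in each of the 24 libraries, coloured by diet. Libraries with more adipocyte marker RNA had more Hsd11b1 within each diet, at r of 0.84 in control, 0.86 with celecoxib and 0.81 with rofecoxib.

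Fkbp5 encodes a co-chaperone that lowers the receptor's affinity for hormone, and its induction is a feedback brake on the receptor. In control Fkbp5 (ENSMUSG00000024222, chromosome 17 from 28535838 to 28654671) lay between 395 and 552 CPM with a median of 489.7. With celecoxib it lay between 175 and 576 with a median of 360.3, 6 libraries below every control and 1, replicate 2, above. With rofecoxib it lay between 181 and 477 with a median of 239, 7 libraries below every control. Both drug groups overlapped the controls. The log2 fold change was -0.46 (SE 0.20) with celecoxib and -0.82 (SE 0.20) with rofecoxib, that is 72.5% and 56.5% of the control level.

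Tsc22d3, which encodes the anti-inflammatory protein GILZ, and Zbtb16, which encodes the zinc finger repressor PLZF, followed each other from library to library. Tsc22d3 (ENSMUSG00000031431, chromosome X from 137073865 to 137135400) lay in control between 67.2 and 215 CPM with a median of 141. It lay between 39.3 and 109.8 with a median of 95.04 with celecoxib and between 41.2 and 189 with a median of 75.8 with rofecoxib. The control range was wide and overlapped both, with 1 celecoxib and 3 rofecoxib libraries below every control. Its log2 fold change was -0.67 (SE 0.26) with celecoxib and -0.76 (SE 0.26) with rofecoxib. Zbtb16 (ENSMUSG00000066687, chromosome 9 from 48462214 to 48644252) lay in control between 265 and 354 CPM with a median of 309. With celecoxib it lay between 97.6 and 367 with a median of 268, and with rofecoxib between 61.7 and 256 with a median of 167.5. The rofecoxib libraries were all below every control, while 3 celecoxib libraries were below and 1 above. Its log2 fold change was -0.33 (SE 0.24, 95% interval -0.83 to 0.17) with celecoxib and -0.99 (SE 0.25, interval -1.50 to -0.48) with rofecoxib.

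Sgk1 encodes a kinase that promotes sodium uptake and cell survival and is a classical target of corticosteroids in several tissues. Sgk1 (ENSMUSG00000019970, chromosome 10 from 21601788 to 21719911) was the steadiest of the 10 genes in control, between 181 and 207 CPM with a median of 195, a coefficient of variation of 4.10%. With celecoxib it lay between 109 and 189.6 with a median of 147, and with rofecoxib between 118 and 169 with a median of 132. All 8 rofecoxib and 6 of 8 celecoxib libraries were below every control. The log2 fold change was -0.37 (SE 0.10) with celecoxib and -0.51 (SE 0.10) with rofecoxib. Klf9, a Krüppel-like transcription factor gene that glucocorticoids and thyroid hormone induce, had the estimate nearest 0 of the 8 targets. Klf9 (ENSMUSG00000033863, chromosome 19 from 23215514 to 23241603) lay in control between 275 and 351 CPM with a median of 320.3, with celecoxib between 240.0 and 327 with a median of 295, and with rofecoxib between 220.0 and 329 with a median of 267. The groups overlapped. Its log2 fold change was -0.13 (SE 0.08) with celecoxib and -0.22 (SE 0.08) with rofecoxib.

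Ddit4 encodes REDD1, an inhibitor of mTORC1 signalling that glucocorticoids, hypoxia and DNA damage induce. Ddit4 (ENSMUSG00000020108, chromosome 10 from 59412221 to 59414720) lay in control between 67.1 and 107 CPM with a median of 79.0. With celecoxib it lay between 19.7 and 49.2 with a median of 28.6, all 8 libraries below every control. With rofecoxib it lay between 22.9 and 71.1 with a median of 38.6, 7 of 8 below every control, with replicate 2 the exception. The log2 fold change was -1.36 (SE 0.22) with celecoxib and -1 (SE 0.22) with rofecoxib, or 39.1% and 50.1% of the control level. Ddit4 was the 1 gene of the 8 targets whose estimate lay farther below control with celecoxib than with rofecoxib.

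Errfi1 encodes MIG6, a feedback inhibitor of the EGF receptor. Errfi1 (ENSMUSG00000028967, chromosome 4 from 150227826 to 150243203) lay in control between 379.7 and 524.5 CPM with a median of 435. With celecoxib it lay between 164 and 639 with a median of 244, 7 libraries below every control and replicate 2 above. With rofecoxib it lay between 171 and 379.6 with a median of 203, all 8 below every control, although replicate 2 at 379.58 missed the lowest control, 379.71, by less than 1 CPM. Its log2 fold change was -0.63 (SE 0.22) with celecoxib and -0.94 (SE 0.22) with rofecoxib. Cdkn1a encodes p21, a cyclin-dependent kinase inhibitor that p53 also induces. Cdkn1a (ENSMUSG00000023067, chromosome 17 from 29227722 to 29237869) lay in control between 126 and 329 CPM with a median of 209.6, with celecoxib between 67.9 and 294 with a median of 129, and with rofecoxib between 87.3 and 160.1 with a median of 103.5. Both groups overlapped the controls, with 4 celecoxib and 6 rofecoxib libraries below them all. Its log2 fold change was -0.57 (SE 0.24) with celecoxib and -0.90 (SE 0.25) with rofecoxib. In GENCODE M21, Fkbp5, Errfi1 and Cdkn1a each overlap another gene on the opposite strand. Fkbp5 also overlaps AC154912.5 and AC154912.3 on its own strand, and Klf9 overlaps Mir1192 on its own strand. Shared exons were not checked for these genes either.

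Across the 10 genes, 9 had an estimate below 0 with celecoxib, at a median log2 fold change of -0.44, and 8 with rofecoxib, at a median of -0.79. Over all 14528 genes tested, 49.6% and 45.1% were below 0, at medians of 0.001 and 0.023, and 1969 and 4103 had an unadjusted p under 0.05 by edgeR, the background for such counts in the lists below. By edgeR's quasi-likelihood test, with a threshold of 0.05 on the p-value adjusted over all genes, 1 of the 10 was lower with celecoxib, Ddit4, where 0.0275% of all genes were lower and 0.0344% were called in either direction. With rofecoxib 6 of the 10 were lower, Sgk1, Ddit4, Cdkn1a, Fkbp5, Errfi1 and Zbtb16, where 3.06% of all genes were lower and 6.94% were called. All 8 libraries were below every control for 1 of the 10 with celecoxib and 3 with rofecoxib, against 0.145% and 0.509% of all genes. The genes were picked with these differences known, so nothing is read from these shares. The 2 comparisons use the same 8 control libraries.

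The count with celecoxib was 0 without celecoxib replicate 7 or 8 or without control replicate 3 or 4, and 2 without celecoxib replicate 2. The count with rofecoxib stayed between 5 and 7 without any 1 library, and was 0 with adipocyte and skeletal muscle levels as covariates, a fit that called 15 genes in all, and 0 within replicates 1 to 4. With these covariates the rofecoxib estimates of the 8 targets lay between -1.17 for Zbtb16 and -0.11 for Klf9. The skeletal muscle level was low and, in control, widely spread. Its control mean was 0.33 log2 CPM (SD 1.2), with libraries from -0.58 to 3.22. The mean was 0.13 with celecoxib and 0.34 with rofecoxib. Which covariate ended the calls was not tested. The part of tissue composition in these changes was not tested beyond the fit with both covariates.

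**Figure D3:**
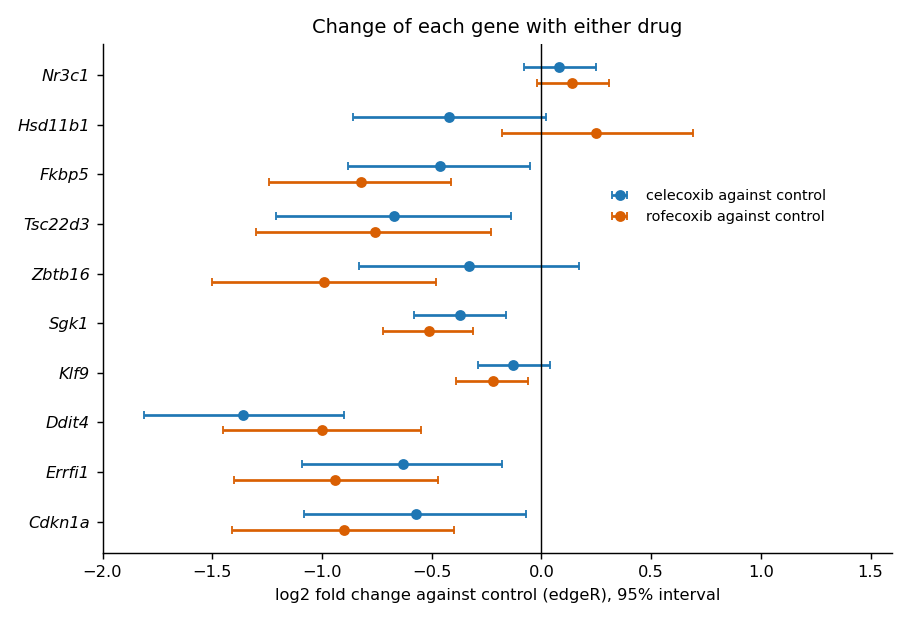
Log2 fold change against control (x axis) of each gene (y axis) with celecoxib and with rofecoxib, with 95% intervals from edgeR. The 8 targets lie to the left of 0 with both drugs, from -0.13 to -1.36 with celecoxib and from -0.22 to -1 with rofecoxib, while Nr3c1 lies at 0.08 and 0.14.

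The doses of the drugs differed, so the difference between them is given only as an interval. Celecoxib minus rofecoxib was 0.66 for Zbtb16 (95% interval 0.15 to 1.16) and -0.67 for Hsd11b1 (-1.11 to -0.23). The interval included 0 for the other 8 genes, among them Fkbp5 at 0.36 (-0.05 to 0.77), Ddit4 at -0.36 (-0.81 to 0.09) and Sgk1 at 0.14 (-0.06 to 0.35), which leaves room for differences in either direction.

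The mean log2 CPM of the 9 genes other than Nr3c1 gave 1 value per library. In control it lay between 7.33 and 7.65 with a median of 7.47 (7.47 ± 0.11). With celecoxib it lay between 6.45 and 7.32 with a median of 6.89 (6.88 ± 0.29), a difference of -0.59, and with rofecoxib between 6.48 and 7.38 with a median of 6.72 (6.77 ± 0.28), a difference of -0.70. All 8 celecoxib and 7 of 8 rofecoxib libraries were below every control, with rofecoxib replicate 2 inside the control range and celecoxib replicate 2, at 7.32, just under it.

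The difference in mean level lay farther from 0 in replicates 5 to 8 than in replicates 1 to 4, a contrast that was not tested. It was -0.40 with celecoxib and -0.50 with rofecoxib in replicates 1 to 4, and -0.78 and -0.90 in replicates 5 to 8. Fkbp5 with celecoxib was at -0.17 in the first set and -0.88 in the second, Zbtb16 at -0.03 and -0.79, and Cdkn1a at -0.29 and -1.04. Not every gene followed: Ddit4 with celecoxib was at -1.59 and -1.20, Hsd11b1 with celecoxib at -0.64 and -0.11, Cdkn1a with rofecoxib at -0.98 and -0.78, and Nr3c1 with rofecoxib at 0.22 and 0.06. Sgk1 with rofecoxib was at -0.49 and -0.56. The protocols in the labels spread library construction over 3 days without naming the day of a library, and what the sets share was not tested.

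**Figure D4:**
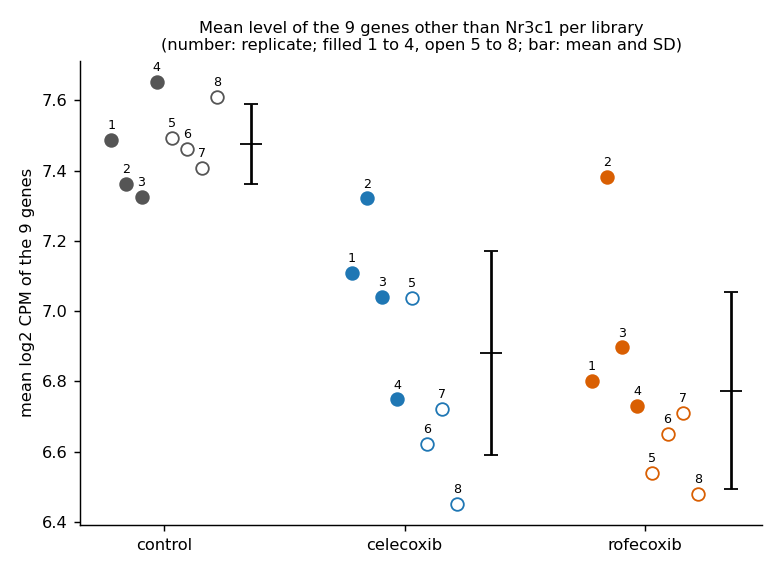
Mean log2 CPM of the 9 genes other than Nr3c1 (y axis) in each library by diet (x axis); numbers are replicates, filled points 1 to 4, open points 5 to 8, and bars the mean and SD. Control libraries keep between 7.33 and 7.65, and the drug libraries spread lower, with replicate 2 the highest of each drug group.

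The spread within groups was described too. The SD of log2 CPM in the 9 genes was a median of 2.02 times the control SD with celecoxib and 2.18 times with rofecoxib, where the medians over all tested genes were 1.13 and 1.26. Control had the smallest SD of the 3 groups in 6 of the 9 genes and in 49.5% of all tested genes. Rofecoxib replicate 2 was among the highest 2 libraries of its group in 8 of the 9 genes, celecoxib replicate 8 among the lowest 2 of its group in 8 of the 9, and control replicate 8 among the highest 2 of the controls in 8 of the 9.

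Per kilobase of exon, to compare genes with each other, Errfi1 was the most abundant in control at 123 ± 14.4 CPM per kb, above every other gene in every control library. It was followed by Klf9 at 65.5 ± 5.91, Cdkn1a at 60.4 ± 18.3, Zbtb16 at 58.5 ± 6.02, Fkbp5 at 52.2 ± 5.25, Ddit4 at 47.1 ± 7.44, Sgk1 at 39.7 ± 1.63 and Tsc22d3 at 32.3 ± 9.95. Each of these overlapped its neighbour in the order. Nr3c1 followed at 13.9 ± 1.43, its range overlapping that of Tsc22d3, and Hsd11b1 was lowest at 4.85 ± 1.72, with no overlap with Nr3c1 (all SD, n = 8). In the drug groups Ddit4 moved from sixth place to the eighth with celecoxib, at 18.4 ± 5.84, and to the seventh with rofecoxib, at 23.6 ± 10.3.

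Covariation was measured after subtracting each group's mean, over 24 libraries with near-equal totals and 1 scaling, and is a description. The closest pair was Tsc22d3 and Zbtb16, at r = 0.80 (rho = 0.68), with 0.86, 0.91 and 0.84 in control, celecoxib and rofecoxib. In celecoxib the rank correlation was only 0.40, and without celecoxib replicate 6, where both genes were lowest, the pooled r was 0.74. A second set joined Errfi1 with Sgk1 at r = 0.66, with Fkbp5 at 0.64 and with Cdkn1a at 0.64. In control, celecoxib and rofecoxib these were 0.62, 0.75 and 0.40 with Sgk1 and 0.58, 0.84 and 0.40 with Fkbp5. With Cdkn1a they were -0.33, 0.84 and 0.61, so that link was not seen in control. Within celecoxib Errfi1 and Fkbp5 had the same rank order in all 8 libraries. Without celecoxib replicate 2 the pooled r of Errfi1 with Fkbp5 was 0.55 and with Cdkn1a 0.44.

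Among the 36 pairs of the 9 genes other than the receptor the median r was 0.28, from -0.27 to 0.80, and 5 pairs were above 0.5. Over all pairs of the 7034 genes in the same range of level the median was 0.02 and 9.40% were above 0.5. Against the mean of the other 8, Errfi1 stood at 0.69, Fkbp5 at 0.66, Sgk1 at 0.56, Tsc22d3 at 0.52 and Zbtb16 at 0.48, while Klf9, Ddit4 and Cdkn1a were at 0.29, 0.28 and 0.24 and Hsd11b1 at 0.00. For Cdkn1a this was -0.58 in control, 0.66 in celecoxib and 0.10 in rofecoxib. Nr3c1 was at -0.12 with the mean of the 9, and its strongest pooled relation was a negative one with Cdkn1a, at r = -0.72. That was -0.82, -0.79 and -0.56 in control, celecoxib and rofecoxib and between -0.76 and -0.66 without any 1 library. With Zbtb16, Nr3c1 was at 0.89, 0.07 and 0.57 in control, celecoxib and rofecoxib, and with Tsc22d3 at 0.78, 0.16 and 0.54.

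**Figure D5:**
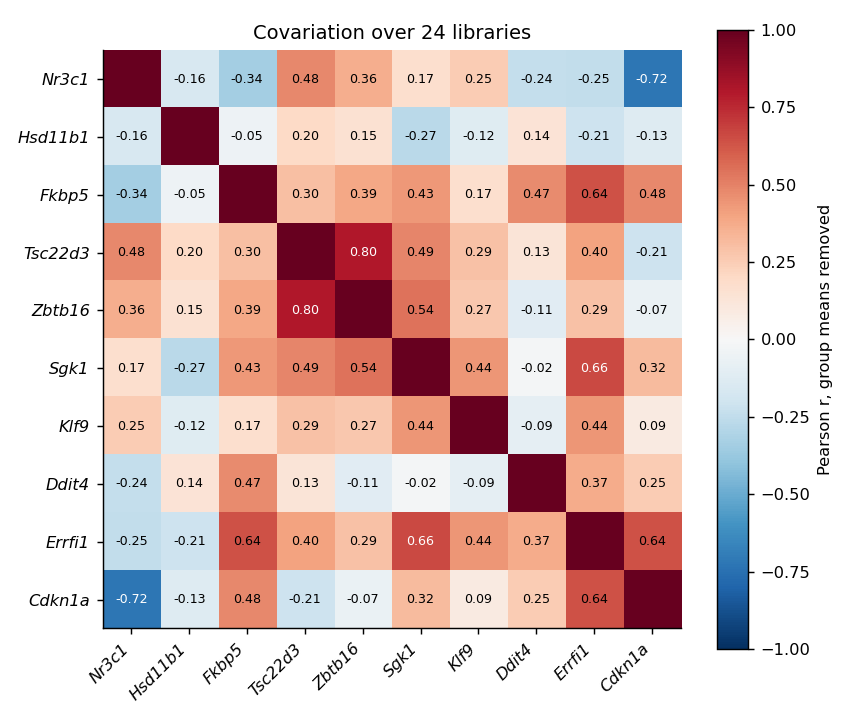
Pearson r between each pair of genes over 24 libraries after group means were removed, with red positive and blue negative. Tsc22d3 with Zbtb16 is the closest pair at 0.80, Errfi1 joins Sgk1, Fkbp5 and Cdkn1a, and Nr3c1 with Cdkn1a is the most negative at -0.72. Errfi1 with Cdkn1a was at -0.33 in control alone.

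Of 13133 genes outside the 10 with a mean of at least 1 CPM, the 8 most like the mean of the 9 in the same measure were Foxo1 and Runx3 at r = 0.89, Bcl2l1 at 0.84, Slc45a3 at 0.83, Hif3a and Phf15 at 0.81, 1110038D17Rik at 0.78 and Lrrc58 at 0.77. Foxo1 encodes a forkhead transcription factor that insulin signalling restrains, and Bcl2l1 the survival protein BCL-XL. The 5 most like Nr3c1 were Setbp1 at 0.93, Tmem154 at 0.91, Casp2 and Lama4 at 0.89 and Pde1a at 0.87. Dusp1, a phosphatase gene that glucocorticoids induce and that switches off MAP kinases, was at 0.03 with the mean of the 9, and the clock gene Per1, which glucocorticoids also induce, at 0.52.

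Other glucocorticoid-induced genes were lower with the drugs in part. Their list and those that follow were chosen with earlier results of these data known. Their counts and p-values are therefore a description and no independent support. Of 23 such genes outside the 10, 21 were below 0 with celecoxib at a median of -0.28. An unadjusted p under 0.05 by edgeR was found for 10 of the 23, where 1969 of all 14528 genes had one. After adjustment 1 fell with celecoxib, Dusp1. Dusp1 lay between 164 and 207 CPM in control with a median of 182, between 118 and 161 with celecoxib with a median of 131 and between 83.8 and 135 with rofecoxib with a median of 122.5. All 8 libraries of each drug were below every control. Its log2 fold change was -0.45 with celecoxib (SE 0.08, edgeR adjusted p = 0.0434) and -0.62 with rofecoxib (SE 0.08, edgeR adjusted p = 0.000464). The celecoxib call was lost in 22 of 36 alternatives, over which the adjusted p (edgeR, DESeq2 or limma) ran from 0.000422 to 0.164. Of the 24 fits without 1 library it was kept in 7, those without celecoxib replicate 2 or 3, rofecoxib replicate 3, 5, 7 or 8 or control replicate 7. With the replicate block it was lost (adjusted p = 0.0543) and Cebpb, a transcription factor gene of the same list, passed instead (-0.81, edgeR adjusted p = 0.0248). The rofecoxib call of Dusp1 was kept in all 36 alternatives, with adjusted p from 2.35e-09 to 0.0155.

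With rofecoxib 16 of the 23 were below 0 at a median of -0.33 and 7 fell, with 0 rising. Of the 23, 12 had an unadjusted p under 0.05 by edgeR, where 4103 of all 14528 genes had. After Dusp1 the smallest p-values were those of Bcl6, a transcriptional repressor gene, which fell by 0.61 (SE 0.12, edgeR adjusted p = 0.00627), Fam107a, an actin-binding protein gene, which fell by 0.88 (SE 0.20, adjusted p = 0.0153), and Mertk, a receptor gene for the uptake of dying cells, which fell by 0.45 (SE 0.10, adjusted p = 0.0162). Bcl6 and Mertk were below every control in 8 of 8 libraries and Fam107a in 7. Per1 was at -0.28 (SE 0.13, edgeR adjusted p = 0.358) with celecoxib and -0.27 (SE 0.13, edgeR adjusted p = 0.183) with rofecoxib. The count of 7 was 4 without rofecoxib replicate 7, control replicate 1 or control replicate 7, and 1 with adipocyte and skeletal muscle covariates, where Dusp1 alone kept its call at -0.58 (SE 0.10, edgeR adjusted p = 0.0142).

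Few of the receptor's partners passed the test. Of 13 chaperone genes 0 passed with either drug, at medians of 0.03 with celecoxib and 0.01 with rofecoxib, with 1 and 0 at an unadjusted p under 0.05 by edgeR. The smallest p was that of Fkbp4, the co-chaperone that opposes Fkbp5, at 0.19 with celecoxib (SE 0.07, edgeR adjusted p = 0.264). Of 11 co-regulator genes 0 had an unadjusted p under 0.05 by edgeR with celecoxib and 3 with rofecoxib, where 1969 and 4103 of all 14528 genes had. After adjustment 0 passed with celecoxib and 1 fell with rofecoxib, the acetyltransferase gene Crebbp, from 63.9 ± 4.30 to 51.9 ± 4.497 CPM (n = 8 each). It fell by 0.30 on the log2 scale (SE 0.09, edgeR adjusted p = 0.0376).

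No gene of steroid supply passed the test, and few could be tested. Of 12 genes of steroid synthesis, activation and transport 11 were in the table and 5 passed the filter, and 0 passed the test with either drug (0 at an unadjusted p under 0.05 by edgeR). Hsd11b2, whose enzyme inactivates corticosterone, was below the filter at 0.323 ± 0.152 CPM in control. H6pd, which supplies the cofactor of the enzyme encoded by Hsd11b1, was at 592 ± 26.0 CPM in control and differed by -0.15 on the log2 scale with celecoxib (SE 0.10, edgeR adjusted p = 0.505). With rofecoxib the smallest p was that of the transporter gene Abcb1a, at 0.45 (SE 0.22, edgeR adjusted p = 0.193). Of the 5 other steroid receptor genes 4 were tested and 0 passed with either drug (1 and 2 at an unadjusted p under 0.05 by edgeR). The smallest p with celecoxib was that of Esr1, at -0.28 (SE 0.08, edgeR adjusted p = 0.194). With rofecoxib it was that of Pgr, at -0.43 (SE 0.14, edgeR adjusted p = 0.0635), and Esr1 was at -0.23 (SE 0.08, edgeR adjusted p = 0.0872). The mineralocorticoid receptor gene Nr3c2 was at -0.37 (SE 0.22) with celecoxib and -0.23 (SE 0.22) with rofecoxib, edgeR adjusted p of 0.470 and 0.495.

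Most of the inflammatory genes that the receptor restrains also had estimates below 0. With celecoxib this held for 14 of 14 tested, at a median of -0.73, of which 0 passed the edgeR test and 5 had an unadjusted p under 0.05, as had 1969 of all 14528 genes. With rofecoxib 10 of 14 were below 0 at a median of -0.49, and 4 had an unadjusted p under 0.05 by edgeR, as had 4103 of all 14528 genes. The cyclooxygenase-2 gene Ptgs2 fell by 0.72 (SE 0.22, edgeR adjusted p = 0.0492) and the cytokine gene Il1b rose by 1.22 (SE 0.33, edgeR adjusted p = 0.0313), from 1.55 ± 0.884 to 3.63 ± 1.75 CPM (n = 8 each).

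Lists that share inducers with Cdkn1a and Ddit4 were also counted. Of 10 p53 targets 0 passed with celecoxib, at a median of -0.01. An unadjusted p under 0.05 by edgeR was found for 0 with celecoxib and 3 with rofecoxib. With rofecoxib Trp53inp1 fell by 0.70 (SE 0.16, edgeR adjusted p = 0.0171) while Phlda3 rose by 0.54 (SE 0.15, edgeR adjusted p = 0.0357). Of 9 hypoxia targets 0 passed with celecoxib (0 at an unadjusted p under 0.05 by edgeR). With rofecoxib 5 of the 9 had such a p, where 4103 of all 14528 genes had. After adjustment 2 rose with rofecoxib, the angiogenic factor gene Vegfa by 0.68 (SE 0.19) and Ndrg1 by 0.36 (SE 0.10), with edgeR adjusted p of 0.0348 and 0.0351. Of 12 clock genes 0 passed with either drug (1 and 2 at an unadjusted p under 0.05 by edgeR, where 1969 and 4103 of all 14528 genes were), with Nr1d1 at -0.17 and -0.35 and edgeR adjusted p of 0.565 and 0.0864.

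Several of these rofecoxib calls lay near the threshold and were lost without any 1 of 8 to 16 libraries, while the estimates moved less. Without 1 library Crebbp stayed between -0.32 and -0.27, Ndrg1 between 0.32 and 0.40, Phlda3 between 0.46 and 0.61, Vegfa between 0.59 and 0.80, Il1b between 1.05 and 1.49 and Ptgs2 between -0.86 and -0.64. Without rofecoxib replicate 2 or control replicate 2, 6 or 7, those of Crebbp, Il1b, Ptgs2, Phlda3, Vegfa and Ndrg1 were all lost. The call of Crebbp was also lost without rofecoxib replicate 5, 6 or 7 or control replicate 1, and that of Il1b without rofecoxib replicate 1 or 4 or control replicate 1 or 5. Those of Phlda3 and Vegfa were also lost without rofecoxib replicate 4 or 7 or control replicate 1, 5 or 8, and that of Ndrg1 without rofecoxib replicate 4, 5 or 7 or control replicate 8. That of Ptgs2 was lost in 16 of the 24 such fits, also without celecoxib replicate 1, 3, 4 or 6, rofecoxib replicate 3, 4, 5, 6 or 7 or control replicate 1, 5 or 8. With adipocyte and skeletal muscle covariates none of these 6 passed, nor did Trp53inp1, Bcl6, Fam107a or Mertk (edgeR adjusted p from 0.0763 for Bcl6 to 0.733 for Vegfa). Vegfa was then at 0.09 (SE 0.10), Il1b at 0.47 (SE 0.27), Phlda3 at 0.18 (SE 0.15) and Mertk at -0.28 (SE 0.11). Bcl6 was at -0.66 (SE 0.15), Fam107a at -0.79 (SE 0.26), Crebbp at -0.25 (SE 0.11), Ndrg1 at 0.27 (SE 0.12), Ptgs2 at -0.47 (SE 0.26) and Trp53inp1 at -0.48 (SE 0.18). The skeletal muscle level was low, as given above, and its part in these lost calls was not tested. The replicate block, with equal numbers taken as pairs, ended the call of Il1b (1.23, edgeR adjusted p = 0.0522).

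Some markers of other cell types rose with rofecoxib. Adipocyte markers rose in 3 of 8, among them Lep by 2.26 (SE 0.43, edgeR adjusted p = 0.00627), with all 8 above 0 and a summed level of 975 to 4233 CPM against 701 to 3313 in control. Endothelial markers rose in 2 of 6, Tek and Kdr, macrophage markers in 1 of 5, Mrc1, and of 6 fibroblast markers Col1a1 fell. In the adipocyte, endothelial, macrophage and fibroblast lists 7, 3, 3 and 2 genes had an unadjusted p under 0.05 by edgeR with rofecoxib. Of 6 smooth muscle, 7 brown adipocyte, 5 neutrophil, 5 Schwann cell, 4 skeletal muscle and 3 erythroid markers tested, 0 passed with rofecoxib by edgeR, at medians of -0.11, 0.81, 0.65, 1.19, -0.64 and 0.30, with 0, 4, 1, 4, 0 and 0 at an unadjusted p under 0.05. With celecoxib 0 markers of any list passed, and the medians of these 6 lists were 0.10, -0.40, -0.88, -0.67, -1.17 and -0.35, with 0, 0, 4, 2, 3 and 0 at an unadjusted p under 0.05. Of all 14528 genes 4103 had such a p with rofecoxib and 1969 with celecoxib. Apart from the covariate fit above, their part in the changes of the 10 genes was not tested.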

How the data were processed

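Poly(A) RNA of 24 thoracic aorta libraries, 8 per diet, was analysed from 1 table in which the authors deposited whole-number read counts per gene. Per the submitters' processing notes, CASAVA 1.8.1, STAR 2.5.1b and mm9 were used. Which counter, annotation and strand setting made the table is not given in the sources used here. Groups came from the sample labels, which call replicates by number. The edgeR p-values weigh a group difference against the spread between these samples. Replicate numbers were checked for pairing: 7 of 16 same-number correlations were above 0.1, and they ran from -0.30 to 0.56. Libraries with different numbers were not compared, so this check cannot decide whether the numbers are pairs. The numbers were not used as a block in the main fit, and the block was one of the alternatives.

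Genes were tested with edgeR 4.0.16 in R 4.3.3 (TMM, default filter, quasi-likelihood, 1 mean per group on all 24 libraries), with Benjamini-Hochberg adjustment over 14528 genes. That fit gave the standard errors and 95% intervals, and a common biological coefficient of variation of 19.6%. Levels for covariation were log2 CPM with a prior count of 2. Relations with 4 marker levels used 100000 permutations within groups. The 10 genes and all 19 other lists were chosen with earlier results of these data known. From each list up to 4 called genes per drug are named, or otherwise up to 2 by smallest p. Some others, such as Dusp1, Per1 and Nr3c2, are named whatever their p. DESeq2 1.42.0, limma 3.58.1 and the settings of the closing section were the alternatives. The scripts were tested on simulated data. Exon lengths were from GENCODE M21 and promoters from RefSeq. Intervals cover counting and replicate spread only.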

Additional observations from a re-analysis of the deposited data

Results flagged for a closer look

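Of the 30 groups of 8 libraries examined for the 10 genes, 4 held a library far from the other 7. Chance alone flags about 1 in 20 groups where values are normally distributed and groups independent. These groups share libraries and CPM were taken without a log, so that rate is a rough guide only. Fkbp5 in control replicate 3 was 394.9 CPM, below the next library at 478 CPM. Tsc22d3 in rofecoxib replicate 2 was 188.6 CPM, above the next at 87.3 CPM. Errfi1 in celecoxib replicate 2 was 639.5 CPM, above the next at 312 CPM. Errfi1 in rofecoxib replicate 2 was 379.6 CPM, above the next at 265 CPM. Replicate 2 was thus the high library in 3 of the 4, in both drug groups; the cause was not tested.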

How the results depend on the processing

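The mean level of the 9 genes kept its direction under each alternative in which it was computed, which left out DESeq2 and limma voom, from -0.79 to -0.40 with celecoxib and from -0.90 to -0.50 with rofecoxib, including a prior count of 0.5 that was chosen after seeing the data. The 2 marker relations were also called with that prior count. Of all genes, 5 were called with celecoxib and 1008 with rofecoxib. The counts were 2 and 557 without a filter, 107 and 1797 by DESeq2, 3 and 15 with the adipocyte and skeletal muscle covariates, 174 and 1735 with a term for replicates 1 to 4 against 5 to 8, 9 and 42 in replicates 1 to 4 and 313 and 401 in replicates 5 to 8. With celecoxib the count was 45 with the 2 groups compared alone and 27 with the replicate block, which gave 1187 with rofecoxib; the replicate block moved no count of the 10 genes, but the 1 other glucocorticoid-induced gene called with celecoxib was then Cebpb and not Dusp1. Leaving out 1 library gave 0 to 34 with celecoxib (34 without celecoxib replicate 2, 9 without rofecoxib replicate 8, 3 or fewer without celecoxib replicate 1, 4, 5, 7 or 8, rofecoxib replicate 1, 2 or 6 or any control but replicate 7) and 358 to 1945 with rofecoxib (1945 without rofecoxib replicate 8, 1789 without control replicate 4, 596 or fewer without rofecoxib replicate 2, 4 or 7 or control replicate 1, 2, 5, 6 or 7). Of the other glucocorticoid-induced genes, 1 was called with celecoxib, but 0 with library size alone, without a filter, with the covariates or in replicates 1 to 4, and 2 by DESeq2, with the 2 groups alone, with the replicate term or in replicates 5 to 8 (0 to 2 without 1 library, 2 without celecoxib replicate 2). With rofecoxib 7 became 1 with the covariates or in replicates 1 to 4 and 4 in replicates 5 to 8 (4 to 9 without 1 library). Of the 10 genes, 1 with celecoxib became 2 by DESeq2 and 0 in replicates 1 to 4 (0 to 2 without 1 library), and 6 with rofecoxib became 0 with the covariates or in replicates 1 to 4 (5 to 7 without 1 library). Sets of 4 replicates have fewer samples; the other causes were not tested. No direction reversed for a called value. Near-equal library totals limit what can be said of depth.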
